A study of Homo sapiens with 4 samples.

Results

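Cytarabine, the cytidine analog at the centre of induction treatment for acute myeloid leukemia, acts only after the cell has taken it up and phosphorylated it to a triphosphate. The expression of 8 genes that carry the drug in, activate it or inactivate it was examined in MV4-11 cells after IRF1 knockdown. They were SLC29A1 for uptake, DCK and CMPK1 for activation, CDA and DCTD for deamination, NT5C2 and NT5C3A for dephosphorylation, and SAMHD1 for breakdown of the triphosphate. Members were found by gene symbol, and all 8 were among the 23622 genes of the deposited table.

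MV4-11 is a human acute myeloid leukemia cell line with monocytic features. The 4 libraries formed 2 groups of 2, control cells (sh-NC, given as untreated in the labels) and cells carrying a short hairpin RNA against IRF1 (sh-IRF1). Both groups have the genotype WT in the labels. Hairpins were carried by pLKO.1 lentivirus and infected cells were kept under puromycin, no cloning is described, and the hairpin behind each sh-IRF1 library is not given in the sources used here. The labels name no treatment with cytarabine, so the values describe the transcripts of the drug's pathway in cells to which no drug is recorded as given. Nothing in the labels says that same-group libraries came from separate cultures, so the p-values measure the spread between these libraries, which may be technical.

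Cytarabine enters the cell mainly through the equilibrative nucleoside transporter encoded by SLC29A1. Deoxycytidine kinase (DCK) adds the first phosphate and is usually the slow step, the cytidylate kinase CMPK1 adds the second, and nucleoside diphosphate kinases of the NME family add the last. Cytidine deaminase (CDA) converts the free drug, and dCMP deaminase (DCTD) its monophosphate, to uracil compounds that are not active. Cytosolic nucleotidases (NT5C2, NT5C3A) remove the first phosphate again, and SAMHD1 cleaves the active triphosphate back to the nucleoside. The balance of these steps is known to set how much triphosphate competes with dCTP at the replication fork.

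Values are normalized counts, that is, the reads of a gene divided by 1 size factor per library, so that 1 read is worth between 0.937 and 1.03 normalized counts. Totals ran from 17635908 to 18695337 in units of 1 read. IRF1, the targeted gene, read 785 and 738 in sh-NC and 430 and 432 in sh-IRF1, lower in both libraries labelled as knockdown, although 22.9% of its exonic bases are shared with antisense genes. All 10 marker genes listed for the line (PTPRC, CD33, FLT3, HOXA9, MEIS1, MPO, SPI1, CSF1R, ITGAM, CD14) were present, while 7 of 10 markers of T cells, B cells, red cells, epithelium and fibroblasts were not in the table and the summed level of the other 3 was 231 to 233 in sh-NC and 233 to 256 in sh-IRF1. Of the line's own 10 markers limma called 2 higher and 5 lower, beside 20.3% and 21.9% of all genes tested. SPI1 and ITGAM were higher (ITGAM 118 and 166 in the control libraries against 236 and 202 normalized counts), PTPRC, FLT3, MPO, CSF1R and CD14 were lower (CD14 38.0 and 42.1 against 10.9 and 1.87), and CD33, HOXA9 and MEIS1 were not called. HOXA9 and MEIS1 share 27.0% and 13.3% of their exonic bases with other genes, so their reads are uncertain. The markers summed to between 30565 and 30609 in the control libraries and between 25181 and 25307 in sh-IRF1, a sum of which FLT3, the receptor kinase, is the largest part (17391 and 17412 against 12745 and 12634). Their part in the results below was not tested, and in bulk RNA fewer cells of one kind cannot be told apart from less RNA per cell.

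The promoters of the members are shown first for the genes whose transcripts were called lower, CMPK1, DCTD and NT5C3A, and for DCK, the first kinase, which did not pass the test. Sequences are RefSeq windows on GRCh38.p14 from 250 bases before to 50 after a start of transcription, 5′ to 3′ on the gene's strand, and all 8 members matched, with 13 windows because some genes have several starts. Capitals mark exact matches, on either strand, to CACGTG (the E-box that MYC binds) or GGGCGG (the GC box of SP family factors).
CMPK1 (chr1:47333540-47333839, plus strand): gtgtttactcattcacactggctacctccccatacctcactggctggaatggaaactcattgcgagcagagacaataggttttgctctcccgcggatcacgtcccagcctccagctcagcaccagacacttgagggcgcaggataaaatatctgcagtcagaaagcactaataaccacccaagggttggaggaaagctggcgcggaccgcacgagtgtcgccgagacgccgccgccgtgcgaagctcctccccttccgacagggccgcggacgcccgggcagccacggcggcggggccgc
DCTD (chr4:182917562-182917861, minus strand): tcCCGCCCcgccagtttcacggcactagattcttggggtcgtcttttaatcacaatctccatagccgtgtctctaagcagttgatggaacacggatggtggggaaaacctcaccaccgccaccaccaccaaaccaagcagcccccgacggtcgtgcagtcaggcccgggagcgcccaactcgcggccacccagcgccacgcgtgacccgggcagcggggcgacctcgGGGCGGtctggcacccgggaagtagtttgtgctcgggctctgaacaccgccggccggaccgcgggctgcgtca
NT5C3A (chr7:33062727-33063026, minus strand): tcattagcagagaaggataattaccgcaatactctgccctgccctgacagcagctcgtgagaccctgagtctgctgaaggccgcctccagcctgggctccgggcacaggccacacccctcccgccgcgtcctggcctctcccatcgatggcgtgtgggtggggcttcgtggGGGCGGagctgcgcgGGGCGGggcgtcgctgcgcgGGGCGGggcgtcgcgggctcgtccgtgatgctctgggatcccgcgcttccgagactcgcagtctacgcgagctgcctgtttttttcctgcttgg
DCK (chr4:70993399-70993698, plus strand): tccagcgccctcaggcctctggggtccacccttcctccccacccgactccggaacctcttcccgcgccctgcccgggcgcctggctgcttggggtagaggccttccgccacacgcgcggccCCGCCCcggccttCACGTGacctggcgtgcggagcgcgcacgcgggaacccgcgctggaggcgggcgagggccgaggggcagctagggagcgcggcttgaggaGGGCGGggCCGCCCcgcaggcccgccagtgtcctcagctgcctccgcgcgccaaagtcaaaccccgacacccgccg

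The CMPK1 window held no match, the DCTD window shown held 2 GC boxes, the NT5C3A window shown held 3 and the DCK window held 3 GC boxes and 1 E-box. Over all windows of the members, a GC box occurred in 8 of 13, belonging to 5 of the 8 genes, against 45.0% of the 35116 RefSeq promoter windows of the same length. An E-box occurred in 2 of 13 windows, 1 each of SLC29A1 and DCK, against 7.26% of all windows. The core of the interferon-stimulated response element, the motif class bound by IRF1, was searched as 2 copies of GAAA with any 2 bases between them and occurred in 1 of 13 windows, against 3.57% of all windows. That match, on the strand opposite to the gene, begins 5 bases before an alternative start of NT5C2 and runs across it, in a window with 29.3% G and C, and is shown with its matched letters in capitals.
NT5C2, alternative start (chr10:103177043-103177072, minus strand): gatgacatttTTTCCTTTTCaaatgttaca

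Within a window, no match overlapped another. The DCTD windows overlap in position, so the GC box at -23 in the window shown is the same site as that at -248 in its other window, and it counts in each. The CDA window held none of these motifs and 8 CpG sites, and the SAMHD1 window none and 22 CpG sites. These matches describe letters in a window and say nothing of binding in these cells.

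The test took genes that reached 10 normalized counts in 2 or more libraries, which 7 of the 8 members did and CDA did not. In the sh-IRF1 libraries 3 of the 7 were lower, CMPK1, DCTD and NT5C3A, and 0 were higher, at a Benjamini-Hochberg adjusted p under 0.05 from limma over 14120 genes. In the same comparison 21.9% of all genes tested were called lower, 20.3% higher and 42.2% either way, so 3 of 7 called is close to the background. Without adjustment the counts at p under 0.05 were the same, 3 lower and 0 higher. The share of all genes tested at that unadjusted threshold is not given here, so these counts have no background beside them. A log2 fold change beyond 0.5 together with the call was reached by 0 of the 7, against 8.27% of all genes tested on the higher side, 7.56% on the lower side and 15.8% in either. That count is 1 when sh-NC replicate 2 or sh-IRF1 replicate 1 is left out, through NT5C3A. The 7 had a median of -0.026 on the log2 scale, beside -0.0019 over all genes tested. In this design of 2 and 2 libraries the smallest p of a two-sided exact permutation test is 0.33, and the calls therefore lean on the variance that limma pools over genes.

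SLC29A1 (ENSG00000112759, chromosome 6, 44219553 to 44234142 of GRCh38 in GENCODE 44) encodes the main uptake carrier of cytarabine. It had 1659 and 1729 normalized counts in sh-NC and 1691 and 1663 in sh-IRF1. The groups overlapped, with both sh-IRF1 libraries inside the range of the control pair. Testing with limma put the difference at -0.014 on the log2 scale, with a standard error of 0.0549 and an adjusted p of 0.863. Its 95% interval ran from 91.7% to 107% of the control level.

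DCK (ENSG00000156136, chromosome 4, 70992538 to 71030914), the kinase of the first phosphorylation, had 1503 and 1363 normalized counts in sh-NC and 1532 and 1579 in sh-IRF1. Both sh-IRF1 libraries lay above both control libraries, but the gap between the groups was smaller than the distance between the control libraries. The log2 difference of 0.12, with a standard error of 0.0595, missed the threshold, with an unadjusted p of 0.0503 and an adjusted p = 0.103 from limma. The 95% interval ran from just under 100% to 118% of the control level. The call turned on 1 library and on the scaling. Without sh-NC replicate 1 the log2 fold change was 0.19 (adjusted p = 0.0189 from limma), and with libraries scaled to equal totals it was 0.16 (adjusted p = 0.022 from limma).

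CMPK1 (ENSG00000162368, chromosome 1, 47333790 to 47394866), which turns the monophosphate into the diphosphate, was the most abundant member by level per kilobase of exon. Its libraries read 5358 and 5473 normalized counts in sh-NC and 4596 and 4680 in sh-IRF1. Both knockdown libraries were lower than both controls, and the distance between groups was several times that within them. CMPK1 fell by 0.22 on the log2 scale, with a standard error of 0.0367 and an adjusted p of 1.70e-06, which left 85.6% of the control mean. Without the trend and the robust shrinkage of limma, but with variance still pooled over genes, the adjusted p was 0.0751, and the call was lost.

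CDA (ENSG00000158825, chromosome 1, 20589086 to 20618903), which inactivates the free drug, was close to the limit of detection. Its normalized counts were 0 and 8.22 in sh-NC and 3.98 and 3.75 in sh-IRF1, that is, at most 8 steps of 1 read. The control libraries alone spanned the whole range, and a difference between the groups was not detectable at this depth. No fold change is given for it.

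DCTD (ENSG00000129187, chromosome 4, 182890060 to 182917936), the deaminase that acts on the monophosphate, had 1821 and 1744 normalized counts in sh-NC and 1460 and 1351 in sh-IRF1. The groups did not overlap, and the sh-IRF1 mean was 78.9% of the control mean. DCTD fell by 0.34 on the log2 scale, with a standard error of 0.0576 and an adjusted p of 2.67e-06. Its adjusted p was 0.0611, and the call was lost, without the trend and the robust shrinkage.

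NT5C3A (ENSG00000122643, chromosome 7, 33014130 to 33062796), a nucleotidase with a preference for pyrimidine monophosphates, had the largest log2 difference of the 7 tested members. Its normalized counts were 542 and 510 in sh-NC and 386 and 369 in sh-IRF1. Both sh-IRF1 libraries were lower than both controls, at 71.8% of the control mean. NT5C3A fell by 0.48 on the log2 scale (standard error 0.102, 95% interval -0.68 to -0.27), at an adjusted p of 0.000138. It was called under each of the 13 alternatives run. A pseudogene that carries its name is in the table, with 1.15% of its reads.

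NT5C2 (ENSG00000076685, chromosome 10, 103087185 to 103277605), a nucleotidase that prefers purine monophosphates and also dephosphorylates cytarabine monophosphate, had 1155 and 1043 normalized counts in sh-NC and 1143 and 1111 in sh-IRF1. Both knockdown libraries lay within the control range. Its log2 difference was 0.038, with a standard error of 0.0675, an adjusted p of 0.686 and a 95% interval from 93.5% to 113% of the control level. The gene shares 34.8% of its exonic bases with CNNM2 and INA on the opposite strand, and whether strand was used in counting is not given in the sources used here, so its reads are uncertain.

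SAMHD1 (ENSG00000101347, chromosome 20, 36890229 to 36951893), which hydrolyses deoxynucleoside triphosphates and the active form of cytarabine, had the tightest replicates. It had 2848 and 2863 normalized counts in sh-NC and 2807 and 2800 in sh-IRF1. The groups did not overlap, with a sh-IRF1 mean at 98.2% of the control mean. The difference did not pass the test, at -0.026 on the log2 scale (standard error 0.0442) and an adjusted p of 0.671, with a 95% interval from 92.3% to 104% of the control level. SAMHD1 shares 9.86% of its exonic bases with TLDC2 on the opposite strand.

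In all, 5 of the 7 tested members did not overlap between the groups, 4 with both sh-IRF1 libraries below the controls and 1 above. Among all genes tested 35.0% had both sh-IRF1 libraries below, 34.2% above, and 69.2% did not overlap either way, so the count of 5 is near the background.

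**Figure D1:**
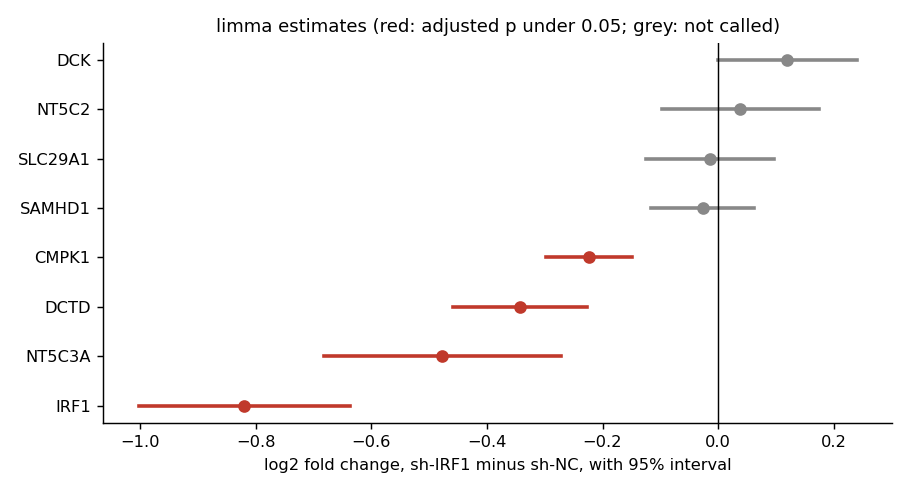
Estimates from limma on the log2 scale (horizontal axis, sh-IRF1 minus sh-NC) with 95% intervals for the 7 tested members and for IRF1, the targeted gene. The intervals of NT5C3A, DCTD and CMPK1 lie below 0, and those of SLC29A1, NT5C2, SAMHD1 and DCK include it.

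Levels were compared between genes as normalized counts per kilobase of exon, with lengths from GENCODE 44. In sh-NC the order was CMPK1 (1208 and 1234 per kilobase), DCTD (544 and 521), DCK (484 and 439), SLC29A1 (386 and 402), SAMHD1 (263 and 264), NT5C3A (168 and 158), NT5C2 (126 and 114) and CDA (0 and 10.02). No neighbours in this order overlapped between the 2 control libraries. CMPK1 was above 96.1% of the tested genes with a length, and NT5C2, the lowest member in the test, above 58.7%. In sh-IRF1 DCK (494 and 509 per kilobase) stood above DCTD (436 and 403), and NT5C2 (125 and 122) above NT5C3A (120 and 115). The order depends on the length used. With the length of the canonical transcript only, the sh-NC mean of DCK (572 per kilobase) was below those of SLC29A1 (813) and SAMHD1 (614), and DCTD was above DCK in sh-IRF1 (729 against 621).

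**Figure D2:**
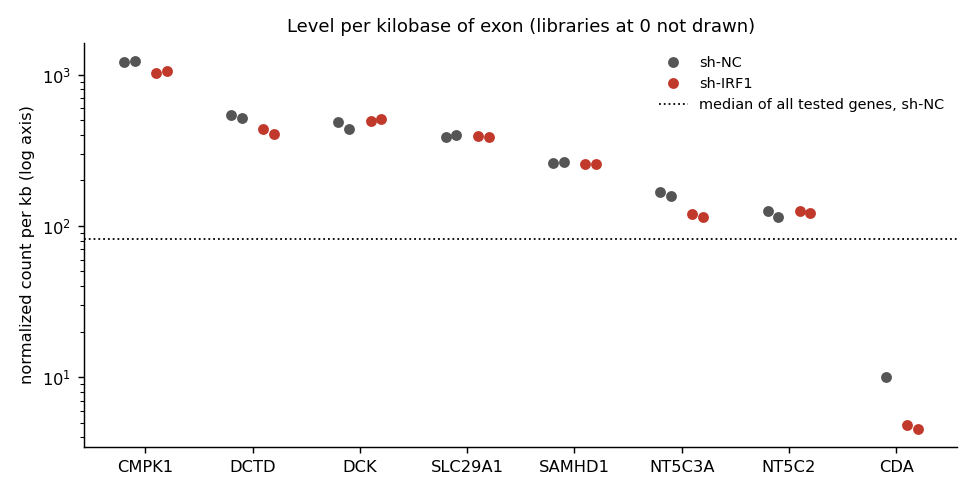
Normalized counts per kilobase of exon (vertical log axis) of the 8 members, ordered by their sh-NC mean, with 1 point per library and a dotted line at 82.5, the median of all tested genes in sh-NC. The 7 tested members lie above the line and CDA below it.

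The ratio of 2 genes within a library does not depend on the scaling between libraries. The ratio of DCK to NT5C3A, the first kinase against the pyrimidine nucleotidase that opposes it, was 2.88 and 2.77 per kilobase in sh-NC and 4.12 and 4.44 in sh-IRF1. It was 1.51 times as high after the knockdown. The ratio of DCK to DCTD was 0.891 and 0.843 in sh-NC and 1.13 and 1.26 in sh-IRF1, or 1.38 times as high. The size of a ratio depends on the lengths used, but its fold between the groups does not. With canonical transcript lengths the DCK mean was below that of DCTD in sh-NC (572 against 924 per kilobase) and in sh-IRF1 (621 against 729). In both ratios the sh-IRF1 libraries lay apart from the controls by more than the spread within either group, and the log2 difference of the denominator was the larger term.

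For the other pairs the groups lay closer. DCK to NT5C2 was 3.83 and 3.85 in sh-NC and 3.95 and 4.18 in sh-IRF1. DCK to SAMHD1 was 1.84 and 1.66 in sh-NC and 1.91 and 1.97 in sh-IRF1. SLC29A1 to DCK was 0.797 and 0.916 in sh-NC and 0.797 and 0.761 in sh-IRF1, and the groups overlapped narrowly, with 1 library of each at nearly the same ratio. No ratio to CDA was formed, because CDA was at 0 in 1 library. The ratios were given no test of their own.

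**Figure D3:**
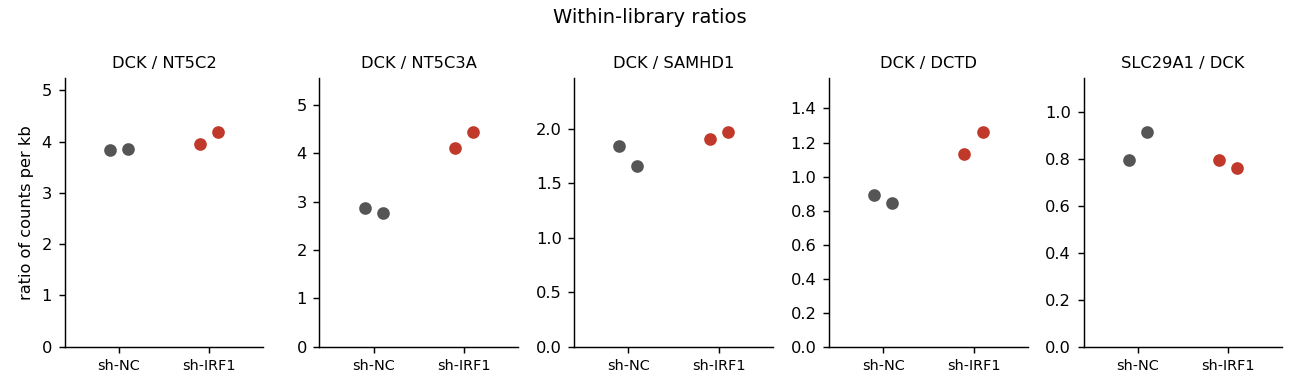
Within-library ratios of normalized counts per kilobase (vertical axes, each from 0) for 5 pairs of members, with 1 point per library. The DCK to NT5C3A and DCK to DCTD points of sh-IRF1 lie clearly above those of sh-NC, and the SLC29A1 to DCK points overlap.

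The rest of the pathway was described from lists of 56 genes, of which 53 were in the table and 49 were tested. Of these limma called 9 higher and 12 lower, beside the 20.3% and 21.9% of all genes, with 3 and 1 of them beyond 0.5 on the log2 scale. Those 4 were RRM2, ABCC10, CCNE2 and SLC28A3.

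Among the other uptake carriers 1 of 3 tested genes was lower and 0 were higher (median log2 fold change -0.18). SLC28A3, a concentrative carrier that moves nucleosides against their gradient with sodium, fell from 535 and 589 normalized counts to 366 and 408, by 0.54 on the log2 scale (adjusted p 2.13e-05). SLC29A2 had 25.6 and 24.7 normalized counts in sh-NC and 24.9 and 19.7 in sh-IRF1, which overlapped, and it shares 10.3% of its exonic bases with an antisense gene. SLC28A2 was under the filter, and SLC28A1 was not in the table.

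Among efflux pumps of nucleotides and nucleoside analogs, 1 of 3 tested genes rose (median of the list 0.18). ABCC10, a multidrug resistance pump, had 631 and 594 normalized counts in sh-NC against 993 and 1015 in sh-IRF1, higher by 0.71 on the log2 scale (adjusted p 1.27e-10). The groups were far apart for this gene. ABCC4, the pump best known for nucleoside monophosphates, had 1548 and 1600 in sh-NC and 1587 and 1659 in sh-IRF1, with an adjusted p = 0.568. ABCC11 and ABCG2 were under the filter.

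Of 13 other nucleoside and nucleotide kinases, all tested, 2 were higher and 3 lower, with a list median of -0.082. TK2, the mitochondrial thymidine kinase that also accepts deoxycytidine, rose from 643 and 642 to 842 and 915 normalized counts, by 0.45 on the log2 scale (adjusted p 7.46e-06), but 20.1% of its exonic bases are shared with other genes and its reads are uncertain. UCK1, a uridine and cytidine kinase, rose by 0.38 (adjusted p 0.00137), and UCKL1, a relative of it, fell by 0.33 (adjusted p 0.0047). Among the NME genes for the last phosphorylation, NME1 (log2 fold change -0.25, adjusted p = 0.0156) and NME4 (-0.22, adjusted p = 0.00116) were lower, and both share over 10% of their exonic bases with another gene. NME2, NME3 and NME6 did not pass the test (adjusted p 0.844, 0.0894 and 0.874 from limma). NME2 and NME6 share 24.2% and 11.3% of their exonic bases with other genes, so their reads are uncertain. NME2 was also low, at 49.2 and 61.6 normalized counts in sh-NC and 57.7 and 46.8 in sh-IRF1. Of the other nucleotidases 3 were tested (median -0.22) and limma called 0. At an unadjusted p under 0.05 from limma 1 was lower and 0 were higher, without the share of all genes at that threshold. NT5C3B, a relative of NT5C3A, had 102 and 93.5 normalized counts in sh-NC and 68.6 and 65.6 in sh-IRF1, a difference of -0.53 on the log2 scale with a standard error of 0.232 and an adjusted p of 0.0611. NT5E was under the filter, and NT5C1A and NT5C1B were not in the table.

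Of 8 enzymes of the deoxynucleotide pools that compete with cytarabine triphosphate, 2 were higher and 2 lower. RRM2, the small subunit of ribonucleotide reductase, rose from 2891 and 2813 to 4422 and 4571 normalized counts, by 0.66 on the log2 scale (adjusted p 2.91e-18). RRM1, the large subunit, rose by 0.15 (adjusted p 0.00253), while RRM2B, the p53-inducible small subunit, did not pass the test, at -0.030 (adjusted p 0.657). CTPS1, which makes CTP from UTP, fell from 2684 and 2779 to 2278 and 2240 normalized counts, and DUT, which turns dUTP into dUMP, from 4068 and 4133 to 3334 and 3419. An antisense gene overlaps 14.5% of the exonic bases of DUT. The list moved in both directions, with a median of -0.006.

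Of 10 genes for kinases, cyclins and inhibitors that act on the phosphorylation of SAMHD1, 2 were higher and 4 lower (median -0.10). CCNE2, a G1/S cyclin, rose from 231 and 224 to 367 and 324 normalized counts, by 0.60 on the log2 scale (adjusted p 0.000146), with 37.1% of its exonic bases shared with antisense genes. CDK1, CCNA2, CDKN1A and CDKN1B were lower, from -0.50 for CDKN1A to -0.25 for CDKN1B on the log2 scale, and CDK4 was higher (0.18), with 44.2% of its exonic bases shared with an antisense gene. The level of SAMHD1 protein or of its phosphorylation was not measured here.

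Of 9 genes for replicative polymerases and the response to stalled forks, 2 were higher and 2 lower (median -0.11). SLFN11, a helicase-like factor that blocks stalled forks, rose from 1519 and 1478 to 1776 and 1938 normalized counts, by 0.31 on the log2 scale (adjusted p 1.32e-05). POLA1, the catalytic subunit of the primase-polymerase complex, had 1370 and 1404 normalized counts in sh-NC and 1083 and 1194 in sh-IRF1, a difference of -0.29 on the log2 scale (adjusted p 0.000242).

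By Euclidean distance of log2 profiles centred on the mean of the 4 libraries, the genes most like CMPK1 were MRPS22, EIF3A and CDCA8 (distances 0.0113, 0.013 and 0.0131 on the log2 scale). Those most like DCK were GOLGA8R, TCF20 and ACAD9 (0.0134, 0.016 and 0.0235). This likeness over 4 libraries, searched among 14120 genes, is a description only.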

How the data were processed

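RNA sequencing of 2 sh-NC and 2 sh-IRF1 libraries of MV4-11 cells was analysed. The submitters' processing notes name HISAT2 2.0.5 and hg38. The counting tool, its annotation and its use of strand are not given in the sources used here. The paper's methods name FPKM and DESeq2. The deposited values are a normalized signal, which the authors, as read from the values, made by dividing a library's gene reads by its size factor: all 23622 values of each library lay within 4.52e-05 of a whole multiple of 1 step. One step lies so near 1 that the values were not accepted as raw counts, so no count test was run.

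Symbols matched 23456 of 23622 identifiers. Values were tested with limma 3.58.1 (R 4.3.3, trend and robust) on log2(value + 1), a scale that understates changes of low genes, for the 14120 genes with at least 10 in at least 2 libraries, after a check on simulated data. Gene models came from GENCODE 44. A gene's reads were called uncertain above 10% shared exonic bases.

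The members, lists and tests were chosen with earlier results of these data known. Other pathway genes were named when called beyond 0.5, or when under the filter. SLC29A2, ABCC4, TK2, UCK1, UCKL1, NME1, NME2, NME3, NME4, NME6, NT5C3B, RRM1, RRM2B, CTPS1, DUT, CDK1, CCNA2, CDKN1A, CDKN1B, CDK4, SLFN11, POLA1, FLT3, ITGAM and CD14 were chosen after their values were seen, as was the canonical length. Alternatives covered scaling, filter, pseudocount, variance model, a replicate block and each library left out.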

Additional observations from a re-analysis of the deposited data

How the results depend on the processing

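Of 91 values of the 7 tested members under the 13 alternatives run, 83 kept their direction and their side of the threshold, 2 lost the call, 2 gained it and 4 changed sign. NT5C3A kept its call in all 13 settings. In the filter, variance-model and replicate-block settings the log2 fold changes equalled those of the main fit, so only a call could move there. A member uncalled in both fits counted as kept if its sign held. With libraries scaled by total, which shifted the median of all genes by 0.044, 1 member was called higher (DCK, 0.16), and the uncalled values of SLC29A1 (0.031) and SAMHD1 (0.018) changed sign. Without trend and robust shrinkage, 1 member stayed called lower, since CMPK1 (-0.22, adjusted p = 0.0751 from limma) and DCTD (-0.34, adjusted p = 0.0611) lost the call while their values did not move. In that setting 1245 genes of the whole table were higher and 1282 lower, against 2861 and 3092. It still pooled variance over genes, and no test without pooling was run.

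When single libraries were left out, between 0 and 1 members were higher, 3 were lower each time, and 0 to 1 lower by more than 0.5. The 1 higher was DCK without sh-NC replicate 1. The 1 past 0.5 was NT5C3A, at -0.52 without sh-NC replicate 2 and -0.51 without sh-IRF1 replicate 1. The log2 fold change ran from -0.044 to 0.016 for SLC29A1, from 0.049 to 0.19 for DCK, from -0.24 to -0.21 for CMPK1, from -0.40 to -0.29 for DCTD, from -0.035 to 0.11 for NT5C2, from -0.52 to -0.43 for NT5C3A and from -0.030 to -0.023 for SAMHD1. SLC29A1 and NT5C2 changed sign without sh-NC replicate 2, at 0.016 and -0.035, neither of them called. Where 1 library of a group was left, it is assumed to vary like the other group.

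The labels give same-numbered libraries only a shared number and do not say whether they were made together. The correlation between their deviations was -0.015, which with 2 libraries per group cannot show whether they were paired. With the replicate block 3 members were lower and 0 higher, as without it, DCK stood at 0.12 on the log2 scale (adjusted p 0.0886), and 2903 genes of the table were higher and 3147 lower. The edgeR and DESeq2 alternatives were not run, because the step of sh-IRF1 replicate 1 (0.995) lies so near 1 that the values were not accepted as raw counts. The values are nevertheless whole multiples of a step in every library, and the scaling alternatives used those multiples as reads. A count test was thus left out by choice, and its outcome is not known here. With 2 libraries per group the spread of a single gene is poorly known, and changes in total RNA per cell cannot be seen.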
